A study of Mus musculus with 22 samples.

Results

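Eph receptors and ephrins, a family of cell-contact signals, were measured in embryonic mouse forelimbs with and without Chsy1, the gene of chondroitin sulfate synthase 1. The genes followed are 5 receptors (Epha3, Epha4, Epha7, Ephb2 and Ephb3) and 5 ligands (Efna1, Efna2, Efna5, Efnb1 and Efnb2). They were chosen by name: every non-control probe whose design name or transcript accession belongs to 1 of these genes was taken. All 10 genes were on the array, with 17 of its 41174 probes, and all 10 passed the filter on dim probes that left 18642 genes and unnamed probes for testing. The forelimbs came from 129 strain embryos of 13.5 days, 9 labelled wild type and 13 labelled Chsy1 knockout. Each sample's total RNA carried Cy5 and shared its two-colour oligonucleotide array with Cy3-labelled RNA of a universal mouse reference, with no dye swap. A value is therefore a log2 ratio of forelimb to reference RNA for 1 probe, and ratios of different genes do not rank their transcripts by abundance. The samples are called biological replicates, but the labels describe neither the allele nor whether a sample is 1 embryo or several. A p-value here covers only the spread among these samples.

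Eph receptors are receptor tyrosine kinases, and ephrins are their ligands, held on the surface of the neighbouring cell. Ephrins of class A are anchored in the membrane by a lipid, those of class B cross it, and the signal can run into the receptor-bearing cell (forward) or into the ephrin-bearing cell (reverse). In the limb bud the pair is known for sorting mesenchymal cells into territories, for condensation of the skeletal elements and for steering motor axons to dorsal or ventral muscle. In whole-limb RNA, fewer cells of a type and less RNA per cell cannot be told apart.

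On each array, 27214 to 30599 of the 43379 spots other than controls were well above background in Cy5. Chsy1 itself averaged 1.73 ± 0.28 (SD, n = 9) in the wild-type arrays and -4.38 ± 1.39 (SD, n = 13) in the knockout arrays, as log2 ratio. The array labelled knockout 1 was at 0.15 and the other 12 knockout arrays lay from -5.12 to -4.05; leaving it out moved no difference of the 10 genes by more than 0.042. All 10 limb mesenchyme markers, Tbx5 of the forelimb among them, were above the reference in wild type, and so were the hindlimb genes Pitx1 (log2 ratio 5.64) and Tbx4 (0.61). In 2 arrays, wild type 1 and knockout 12, the mean of the 10 Eph and ephrin genes was lower than in every other array. The median absolute deviation of the 10 genes from their genotype's median was 0.581 in wild type 1 and 0.444 in knockout 12, against 0.184 and 0.179 over all tested genes in the same arrays. In wild type 4 it was 0.337 for the 10 genes against 0.141 over all tested genes. The mean log2 ratio of the 10 genes was 1.44 in wild type 1 and 1.77 in knockout 12, against 1.94 to 2.43 in the other 20 arrays. That of 9 other Eph and ephrin genes was 0.752 and 0.771, against 0.972 to 1.365. For 9 regulators of limb position, described below, it was 1.025 and 1.378 in the same 2 arrays, against 1.746 to 2.242. Marker lists of most cell types were low there too. The mean log2 ratio of the 10 limb mesenchyme markers was 1.71 and 1.99, against 2.23 to 2.76, that of 8 endothelial markers 1.30 and 1.56 against 2.21 to 2.64, that of 8 cartilage markers 2.15 and 2.55 against 2.88 to 3.42, and that of 7 neuronal markers 0.46 and 1.12 against 1.28 to 1.69. Muscle (1.83 and 1.76 against 1.95 to 2.49), surface ectoderm (0.20 and 0.32 against 0.43 to 1.02), erythroid (2.81 and 2.98 against 2.99 to 3.70) and macrophage markers (-0.64 and -0.56 against -0.56 to -0.04) were at or below the lowest of the other arrays. Schwann cell (0.45 and 0.98 against 0.85 to 1.27), hindlimb (1.9 and 2.58 against 2.52 to 2.9) and liver markers (0.44 and -0.54 against -0.71 to 0.48) were not low in both. The lists of Eph receptor signalling (0.228 and 0.302 against 0.243 to 0.411) and of reverse signalling and shedding (-0.124 and 0.019 against -0.064 to 0.194) were below the other arrays in wild type 1 only. The part of these 2 arrays in the values below was not tested, and results that rest on them are given with and without them.

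The study's comparison asks what is different in the forelimb when Chsy1 is missing. Of the 10 Eph and ephrin genes, 0 passed an adjusted p of 0.05 in limma, and 0 had an unadjusted p under 0.05. Over all 18642 tested genes the same call was made for 4 genes, or 0.0215%, all lower in knockout (2 when wild type 2, 5 or 6 is left out), and 5.33% had an unadjusted p under 0.05. With 4 genes lower and 6 higher, the median log2 difference of the 10 was 0.018, beside -0.0072 over all tested genes, 53.4% of which were lower. For each gene the ranges of the genotypes overlapped, and 9 to 13 of the 13 knockout arrays lay inside the wild-type range. The 95% intervals of the 10 differences reached from -0.44 at the lowest end to 0.45 at the highest. The offset added in background correction compresses the ratios of dim probes.

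**Figure D1:**
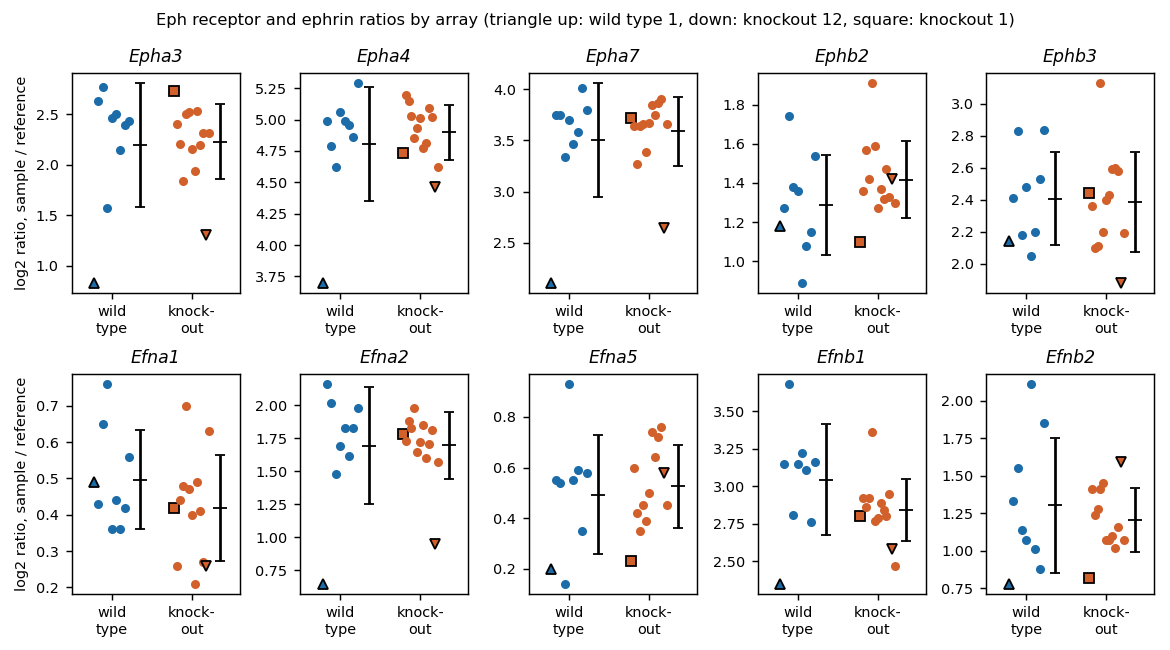
Log2 ratio of forelimb to reference RNA for the 10 genes, 1 panel a gene, each point 1 array (blue: 9 wild type, orange: 13 knockout), with the mean and SD of each genotype beside the points. Wild type 1 (triangle up) is the lowest wild-type array for Epha3, Epha4, Epha7, Efna2, Efnb1 and Efnb2, and knockout 12 (triangle down) is the lowest knockout array for Epha3, Epha4, Epha7, Ephb3 and Efna2.

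Among the class A receptors, Epha4 is known for keeping the axons of dorsal limb muscles on their course, and Epha3 and Epha7 bind class A ephrins in many embryonic tissues. For Epha4 the wild-type arrays ran from 3.70 over a median of 4.96 to 5.29, and the knockout arrays from 4.46 over 4.93 to 5.20. Apart from wild type 1 at 3.70 and knockout 12 at 4.46, all arrays were between 4.62 and 5.29, and the genotypes overlapped. The means were 4.81 ± 0.45 (SD, n = 9) and 4.90 ± 0.22 (SD, n = 13), a log2 difference, knockout minus wild type, of 0.09 (SE 0.14, 95% interval -0.19 to 0.37, adjusted p = 0.971 in limma). Epha4 RNA was above the reference on every array, and the difference between genotypes was smaller than the spread between arrays.

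Epha7 ranged in wild type from 2.11 over a median of 3.70 to 4.01, and in knockout from 2.64 over 3.66 to 3.90. Again 2 arrays made the lower tail, wild type 1 and knockout 12, and the other 20 lay between 3.27 and 4.01. Its means were 3.50 ± 0.56 (SD, n = 9) and 3.59 ± 0.33 (SD, n = 13), with a difference of 0.09 (SE 0.18, interval -0.28 to 0.45, adjusted p = 0.979 in limma). Epha3 ran from 0.83 over 2.43 to 2.77 in wild type and from 1.30 over 2.31 to 2.73 in knockout. Wild type 1 was lowest and wild type 4 next among wild-type arrays (1.57), while knockout 12 was lowest in its genotype. The difference of Epha3 was 0.04 (SE 0.20, interval -0.37 to 0.44, adjusted p = 0.992 in limma). The residual spread of Epha3 was larger than that of 97.4% of tested genes, that of Epha7 larger than 95.7% and that of Epha4 larger than 87.1%.

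The promoters of Epha3, Epha4, Epha7 and Efna2 are shown because these 4 genes were low together in wild type 1 and knockout 12. Each line holds the 250 bases before the transcript start in RefSeq on GRCm38.p6, on the strand of the gene, and capitals mark a match, on either strand, to the GC box (letters GGGCGG) or to the motif that binds the factor NF-Y (letters CCAAT). Epha3 lies at chr16:63864176-63864425 on the minus strand, Epha4 at chr1:77515089-77515338 on the minus strand, Epha7 at chr4:28812881-28813130 on the plus strand and Efna2 at chr10:80179232-80179481 on the plus strand.
Epha3: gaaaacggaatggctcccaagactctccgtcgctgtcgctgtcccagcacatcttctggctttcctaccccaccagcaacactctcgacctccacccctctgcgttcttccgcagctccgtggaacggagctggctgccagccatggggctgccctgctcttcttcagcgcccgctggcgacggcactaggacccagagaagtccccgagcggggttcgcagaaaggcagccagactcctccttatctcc
Epha4: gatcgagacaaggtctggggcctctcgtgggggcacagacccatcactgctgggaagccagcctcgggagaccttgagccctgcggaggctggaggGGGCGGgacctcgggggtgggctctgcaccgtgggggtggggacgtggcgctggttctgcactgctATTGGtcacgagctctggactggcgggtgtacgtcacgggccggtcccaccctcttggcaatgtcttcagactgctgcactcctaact
Epha7: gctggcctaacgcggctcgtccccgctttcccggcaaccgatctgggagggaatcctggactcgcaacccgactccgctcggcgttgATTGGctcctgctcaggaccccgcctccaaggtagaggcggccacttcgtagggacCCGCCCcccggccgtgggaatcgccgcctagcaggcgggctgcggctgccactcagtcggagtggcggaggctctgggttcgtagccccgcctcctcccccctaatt
Efna2: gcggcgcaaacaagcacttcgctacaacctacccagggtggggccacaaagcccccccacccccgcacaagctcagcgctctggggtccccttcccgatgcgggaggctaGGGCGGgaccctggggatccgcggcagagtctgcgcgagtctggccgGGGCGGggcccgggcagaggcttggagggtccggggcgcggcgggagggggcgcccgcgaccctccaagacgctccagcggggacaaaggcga
The GC box stands 154 bases before the start in Epha4, 107 in Epha7, and 140 and 93 in Efna2, and it is in 32.7% of the 32851 promoters of this length. The NF-Y motif stands 88 bases before the start in Epha4 and 163 in Epha7, and it is in 33.8% of all promoters. RefSeq lists another start of Epha7, just downstream, whose window (chr4:28812895-28813144) overlaps the one shown and holds 1 more NF-Y match near its end. The window of Epha3 holds neither motif. A homeodomain core (letters TAATTA), held by 4.84% of all promoters, was searched on both strands and is in none of these 4 windows. The same holds for a core bound by the most posterior Hox factors (letters TTTACG), held by 2.61% of all promoters. The motifs searched do not overlap in these windows. The 4 windows are richer in G and C (62.8%, 66.0%, 69.2% and 73.6%) than the median promoter (52.4%). So are the windows of the other Eph and ephrin genes followed here, from 60.0% in Efnb1 to 74.8% in Efna5. Among those, the GC box is in Ephb3, Efna1, Efna5 and Efnb2, and the NF-Y motif in Ephb2, Efnb1 and Efnb2. RefSeq also lists another start of Efna1, with a window at chr3:89280952-89281201. That window holds the homeodomain core 175 bases before the start and the posterior Hox core 146 bases before it. These cores are in no other window of the Eph and ephrin genes followed here, so their absence is not particular to the 4 genes. Neither the motifs nor the G and C content set the 4 genes apart. These matches are letters in a window and show no binding.

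Ephb2 and Ephb3 are class B receptors that often act together on axons and in epithelial sorting. Ephb2 ran from 0.89 over a median of 1.27 to 1.74 in wild type and from 1.10 over 1.37 to 1.91 in knockout. Knockout 5 was the highest array and wild type 6 the lowest, and 12 of 13 knockout arrays were above the wild-type median. The means of 1.29 ± 0.25 (SD, n = 9) and 1.42 ± 0.19 (SD, n = 13) differ by 0.13 (SE 0.093, interval -0.059 to 0.32, unadjusted p = 0.167, adjusted p = 0.932 in limma). Of the 10 genes it had the most positive difference, and it did not pass the test. Ephb3 went from 2.05 over 2.41 to 2.84 in wild type and from 1.88 over 2.40 to 3.13 in knockout. Its highest array was again knockout 5 and its lowest knockout 12, both outside the wild-type range. The Ephb3 means were 2.41 ± 0.29 (SD, n = 9) and 2.39 ± 0.31 (SD, n = 13), and their difference was -0.02 (SE 0.12, interval -0.28 to 0.24, adjusted p = 0.992 in limma).

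The class A ephrins repel axons and cells that carry EphA receptors; Efna1 was first known as a gene induced in endothelium, and Efna2 and Efna5 form guidance gradients in the nervous system. Efna2 ran from 0.65 over a median of 1.83 to 2.16 in wild type and from 0.95 over 1.73 to 1.98 in knockout. Without wild type 1 (0.65) and knockout 12 (0.95), the 20 arrays lay between 1.48 and 2.16. Its means were 1.70 ± 0.44 (SD, n = 9) and 1.70 ± 0.25 (SD, n = 13), with a difference of 0.00098 (SE 0.14, interval -0.29 to 0.29, adjusted p = 0.9998 in limma), which has no direction. Efna5 went from 0.14 over 0.55 to 0.93 in wild type and from 0.23 over 0.50 to 0.76 in knockout. All 13 knockout arrays lay between the wild-type extremes, wild type 4 and wild type 5. The difference of Efna5 was 0.03 (SE 0.084, interval -0.14 to 0.21, adjusted p = 0.980 in limma). Efna1 had the narrowest spread of the 10 genes, with a residual SD above that of only 26.0% of tested genes. It ran from 0.36 over 0.44 to 0.76 in wild type and from 0.21 over 0.42 to 0.70 in knockout. The 4 knockout arrays outside the wild-type range were all below it. Its means were 0.50 ± 0.14 (SD, n = 9) and 0.42 ± 0.15 (SD, n = 13), a difference of -0.08 (SE 0.064, interval -0.21 to 0.05, unadjusted p = 0.216, adjusted p = 0.932 in limma).

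Efnb1, on the X chromosome, is the ephrin whose loss disturbs skeletal and craniofacial boundaries, and Efnb2 marks arterial endothelium and signals in reverse. Efnb1 ran from 2.35 over a median of 3.15 to 3.68 in wild type and from 2.47 over 2.84 to 3.36 in knockout. The knockout arrays were all inside the wild-type range, and 12 of 13 were below the wild-type median, the exception being knockout 5. The means of 3.04 ± 0.37 (SD, n = 9) and 2.84 ± 0.21 (SD, n = 13) gave the most negative difference of the 10 genes, -0.20 (SE 0.12, interval -0.44 to 0.04, unadjusted p = 0.1002, adjusted p = 0.924 in limma), or 1.15-fold lower. Leaving out wild type 1, the lowest wild-type array for Efnb1, gave -0.29 (interval -0.50 to -0.076, unadjusted p = 0.0098), still with an adjusted p of 0.83 in limma. The labels do not give the sex of the embryos. The mean log2 ratio of 3 Y-linked genes was negative in wild type 8 and 9 and in knockout 2, 3, 5, 6, 12 and 13. With that mean as a covariate, the smallest adjusted p among the 10 genes was 0.94 in limma. Efnb2 ran from 0.78 over 1.14 to 2.11 in wild type and from 0.82 over 1.16 to 1.59 in knockout. On the probe described here, wild type 6 and wild type 9 were above every knockout array. The difference of Efnb2 was -0.10 (SE 0.14, interval -0.37 to 0.18, adjusted p = 0.966 in limma), and without wild type 6 it was 0.0051. On the other Efnb2 probe, wild type 6 (0.45) and wild type 9 (0.64) lay inside the knockout range of 0.11 to 0.95.

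**Figure D2:**
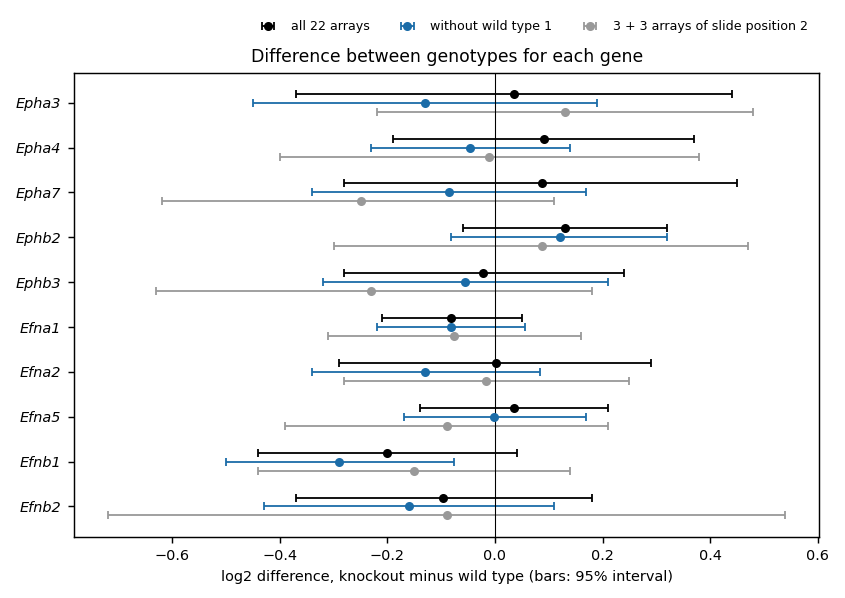
Log2 difference, knockout minus wild type, with its 95% interval for each of the 10 genes, from all 22 arrays (black), without wild type 1 (blue) and from the 3 wild-type and 3 knockout arrays of slide position 2 (grey). Knockout 1 is among the knockout arrays of position 2. All intervals include 0 except that of Efnb1 without wild type 1, from -0.50 to -0.076.

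Wild type 1 alone turned the sign of several differences, none of which passed the test with or without it. When it was left out, Epha3 went to -0.13, Epha4 to -0.046, Epha7 to -0.086, Efna2 to -0.13 and Efna5 to -0.0015, so that 9 of the 10 genes were lower, where 56.4% of all tested genes were, and Ephb2 alone was higher. Without both wild type 1 and knockout 12, the differences of these 5 genes were -0.057, -0.01, -0.007, -0.067 and -0.0059. Single other arrays also turned signs near 0: wild type 4 or knockout 1 for Epha3 (-0.042 and -0.0061), wild type 4 for Efna5 (-0.0089), 5 arrays for Ephb3 and 10 for Efna2. Whichever array was left out, 3 genes kept their direction: Ephb2 stayed at 0.082 to 0.19, Efnb1 at -0.29 to -0.12 and Efna1 at -0.10 to -0.048.

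The arrays lay on 6 slides, each with both genotypes. Efnb1 was lower in knockout on 4 slides and higher on 2, from -0.75 to 0.20, and -0.18 with the slide as a block. Ephb2 was higher on 4 slides and lower on 2, from -0.16 to 0.56, and 0.17 with the slide as a block. Position on the slide was unbalanced, since position 1 held 6 wild-type arrays, positions 3 and 4 held 6 and 4 knockout arrays, and position 2 alone held both genotypes, 3 arrays of each. Within position 2 the difference of Efnb1 was -0.15 (interval -0.44 to 0.14), that of Ephb2 0.087 (-0.30 to 0.47) and that of Epha7 -0.25 (-0.62 to 0.11). One limit is that knockout 1, whose Chsy1 log2 ratio (0.15) was far above those of the other knockout arrays, is among these 3 knockout arrays.

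Second probes of the same gene did not always give the difference of the brightest probe, and the differences of all 17 probes lay between -0.20 and 0.19. For Epha4 the probe at chr1:77251261-77251320 (mm8, minus strand) is the one described above, and another at chr1:77252320-77252379 gave 0.19 (interval -0.079 to 0.46). For Epha7 the described probe is at chr4:29132707-29132766 (plus strand), and one at chr4:29115208-29115267 gave 0.05. The 3 Epha3 probes, at chr16:63487531-63487590, chr16:63487420-63487451 and chr16:63784222-63784281, gave 0.04, 0.05 and -0.03, the last well above background on 17 of 22 arrays. The other Ephb2 probe gave 0.02 against 0.13 for the one described above, and the other Efnb2 probe 0.0019 against -0.10. For Efna5 the values were 0.05 and 0.03. Ephb3 (chr16:21136935-21136994), Efna1 (chr3:89358176-89358235), Efna2 (chr10:79592597-79592656) and Efnb1 (chrX:95350885-95350944) have 1 probe each. No annotation of mm8 was used here, so the exon of each probe is not stated.

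The rest of the family was read in the same fit. Of 12 other Eph receptors and ephrins on the array, 9 were tested, of which 0 passed the threshold, with 3 lower, 6 higher and a median difference of 0.022. Epha1 had the smallest p of them, at 1.71 ± 0.13 in the wild-type arrays (SD, n = 9) against 1.84 ± 0.12 in the knockout arrays (SD, n = 13), a difference of 0.12 (unadjusted p = 0.044, adjusted p = 0.918 in limma). Epha2 was the one family member far below the reference, at -2.09 ± 0.15 (SD, n = 9) and -2.18 ± 0.10 (SD, n = 13). Ephb6 was near it, at -0.06 and 0.07. Efnb3, Efna4, Ephb1, Ephb4, Epha5 and Efna3 were above it in both genotypes. Epha8 and Epha10 were well above background on 0 of 22 arrays and Epha6 on at most 3, and these were not tested.

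**Figure D3:**
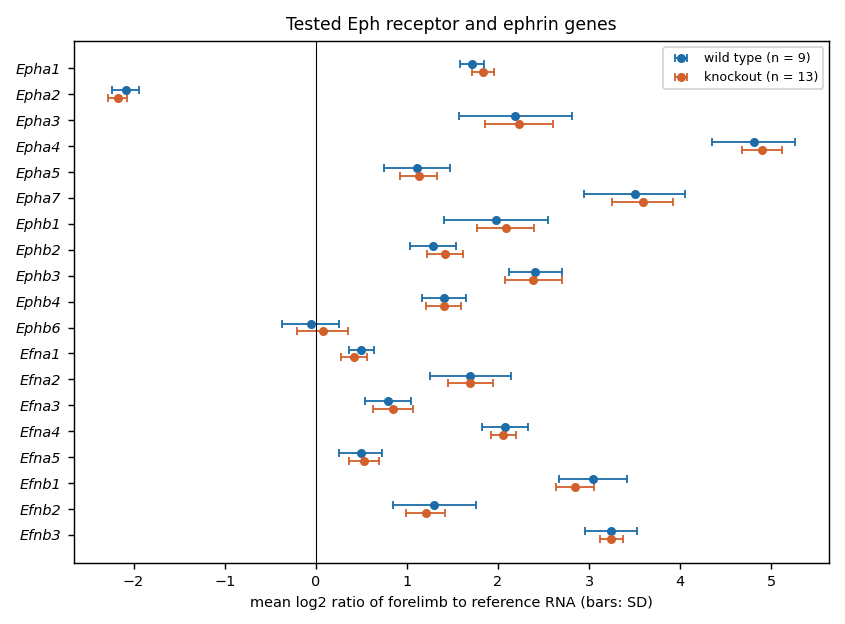
Mean log2 ratio of forelimb to reference RNA, with SD, for the 19 tested Eph receptor and ephrin genes in wild type (blue, n = 9) and knockout (orange, n = 13). In both genotypes 17 of them have a mean above 0, and the bars of the genotypes overlap for each gene.

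Downstream of the receptors, a list of 30 signalling genes (exchange factors for small GTPases, adaptors, kinases of the Src and Abl families) was tested entirely, with 14 lower, 16 higher, a median difference of 0.011 and 0 past the threshold. Rhoa, the small GTPase that acts in growth cone collapse, was at -0.15 with an unadjusted p of 0.0396, and Pak1, a kinase activated by Rac, at -0.18. Tiam1, an exchange factor for Rac, was at 0.11 and the kinase Abl1 at 0.11, and all 4 had adjusted p-values of 0.918 or more in limma. Of 10 genes of reverse signalling and ephrin shedding, 6 were lower and 4 higher with a median of -0.028 and 0 past the threshold. Stat3, which can be activated downstream of ephrin-B1, was at -0.27 (SE 0.15, adjusted p = 0.918 in limma). Ptpn13 and Sdcbp, which bind the tail of B ephrins, were at 0.14 and 0.15, and Rgs3, which carries reverse signals to G proteins, at 0.08.

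Across the 22 arrays, with each genotype's mean subtracted, the 10 genes make 45 pairs. Pearson's r passed an adjusted p of 0.05 over the 45 pairs for 14 of them (permutation test within genotype, 100000 resamples, two-sided), 13 positive and 1 negative, and Spearman's coefficient for 2. An r of at least 0.54 in size, the smallest among those 14, was reached by 16 of the 45 pairs (35.6%), and by 14.5% of all pairs of 18623 tested genes with complete values. The 2 pairs that passed by both coefficients had an r of at least 0.57 and a Spearman coefficient of at least 0.74. Values of that size in both were reached by 4.44% of the 45 pairs and by 2.08% of all pairs. The members of a pair share these arrays, and nothing particular to the family is read from these shares. The high values among Epha3, Epha4, Epha7 and Efna2 rest in large part on wild type 1 and knockout 12. Without these 2 arrays r fell from 0.79 to 0.25 for Epha3 and Epha7 and from 0.69 to 0.10 for Epha3 and Epha4. It fell from 0.75 to 0.02 for Epha4 and Epha7 and from 0.86 to 0.30 for Epha7 and Efna2. The fall was from 0.83 to 0.44 for Epha3 and Efna2 and from 0.81 to 0.34 for Epha4 and Efna2. Without wild type 1 alone, 0 of 45 pairs passed by r. Spearman's coefficient was then 0.77 for Epha7 and Ephb3 and 0.7 for Efna2 and Efnb1. The number of pairs passing by that coefficient is not given for this setting.

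The ligands Efna2 and Efnb1 passed by both measures, with r = 0.76 and a Spearman coefficient of 0.74 (permutation p = 0.00055 and 0.00029, adjusted 0.011 and 0.0065). Without the 2 arrays farthest from the median of Efna2, wild type 1 and knockout 12, r was 0.62. It was 0.77 with slide means subtracted, 0.79 within wild type and 0.68 within knockout. The receptors Epha7 and Ephb3 had r = 0.57 and a Spearman coefficient of 0.78 (permutation p = 0.0057 and 4e-05, adjusted 0.029 and 0.0018). Without the 2 arrays farthest from the median of Epha7, the same 2, r was 0.59, with slide means subtracted 0.53, within wild type 0.56 and within knockout 0.64. Many other genes were closer by rank: among 18622 tested genes Ephb3 was number 59 in likeness to Epha7, and Epha7 number 301 to Ephb3. Efnb1 was number 94 for Efna2, and Efna2 number 141 for Efnb1. The 1 negative pair past the threshold by r was Efna1 and Efna5, at -0.54. Its r was -0.45 without wild type 4 and knockout 5, the 2 arrays farthest from the median of Efna1. It was -0.58 without wild type 1 and knockout 12, and -0.28 with slide means subtracted.

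**Figure D4:**
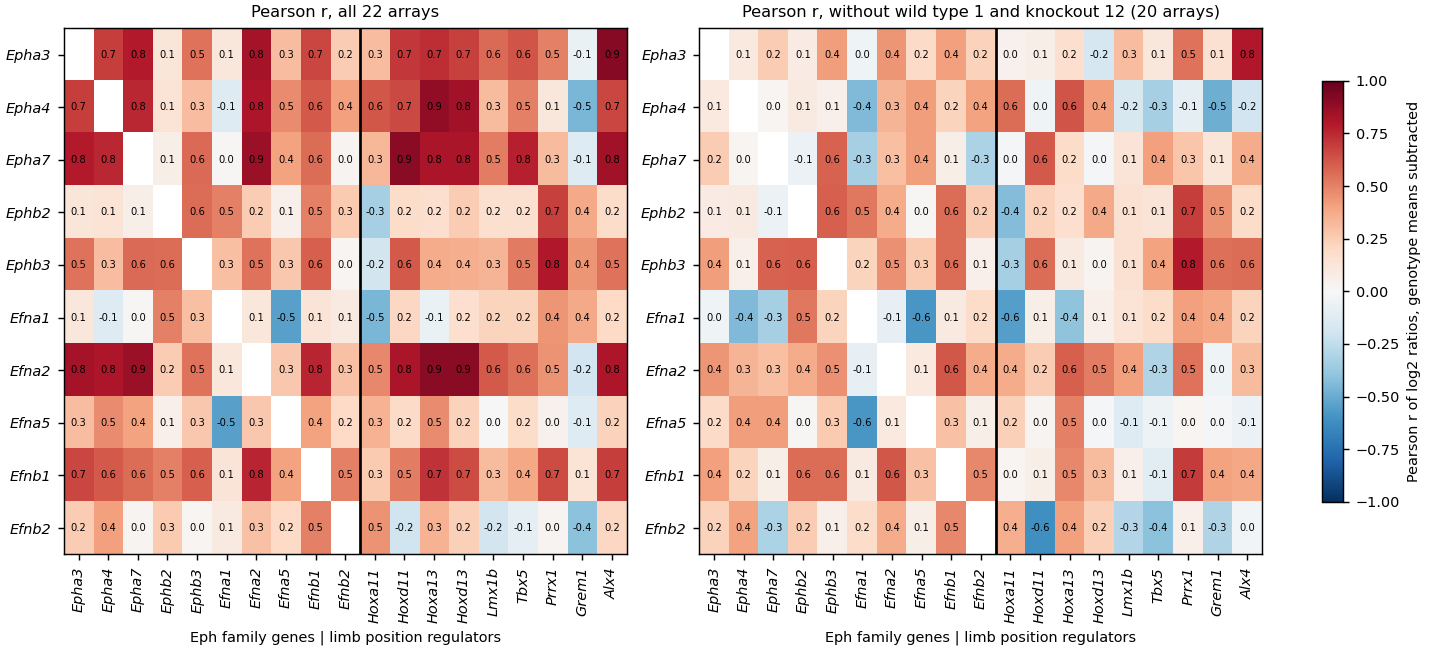
Pearson's r of log2 ratios with genotype means subtracted, for the 10 genes against each other (left of the black line) and against 9 limb position regulators (right of it), over all 22 arrays and without wild type 1 and knockout 12. Most dark red cells of the left panel pale in the right one, while Epha3 with Alx4 and Ephb3 with Prrx1 stay at r of about 0.8.

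Limb position regulators, transcription factors and signals that mark the distal limb (Hoxa13, Hoxd13), the middle segment (Hoxa11, Hoxd11), the anterior side (Alx4), the dorsal side (Lmx1b) or the limb mesenchyme (Prrx1), were set against the 10 genes because Hoxa13 and Hoxd13 are known to act on Eph genes in the distal limb. Of 10 regulators 9 were tested, En1 being well above background on 4 arrays. Their own differences were 3 lower and 6 higher, with a median of 0.150 and 0 past the threshold. The pairing with the 10 genes was added after their values had been seen. Of 90 pairs, 28 passed by r and 14 by both Pearson's and Spearman's coefficients, adjusted over the 90. An r of at least 0.52 in size was reached by 31 of the 90 (34.4%), and by 21.7% of all pairs of a tested gene with 1 of the 9 regulators. Both coefficients were at least as large as the smallest of the 14 (0.52 and 0.56) in 15.6% of the 90 pairs and in 9.93% of those of all tested genes.

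Epha3 and Alx4 had r = 0.91 and a Spearman coefficient of 0.84 (permutation p = 1e-05, the smallest 100000 resamples can give, and 4e-05; adjusted 0.00045 and 0.0036), and r was 0.80 without wild type 1 and knockout 12. Epha4 and Hoxa13 had r = 0.89 and a Spearman coefficient of 0.72 (adjusted p = 0.00067 and 0.0092 by permutation), with 0.63 without the same 2 arrays. Efna2 and Hoxa13 had r = 0.90 and a Spearman coefficient of 0.71 (adjusted p = 0.00072 and 0.0092 by permutation), with 0.60 without them. In wild type 1 the log2 ratio of Alx4 was 1.02 and that of Hoxa13 0.72, against means of 2.46 and 2.32 over the wild-type arrays. Epha7 had r = 0.90 and a Spearman coefficient of 0.65 with Hoxd11, and 0.61 without the 2 arrays. With Hoxa13 and Hoxd13, however, Epha7 had r = 0.82 for both and Spearman coefficients of 0.40 and 0.29. Without the 2 arrays r was 0.18 and -0.02, so these relations rest on those arrays. For Epha3, r fell without them from 0.74 to 0.17 with Hoxa13 and from 0.68 to -0.17 with Hoxd13. With Hoxd13, r fell from 0.84 to 0.41 for Epha4 and from 0.9 to 0.51 for Efna2. Ephb3 and Prrx1 had r = 0.80 and a Spearman coefficient of 0.71, with 0.67 after leaving out knockout 5 and knockout 12, the farthest for Ephb3. All pairs share the arrays, the reference and the tissue, so r describes how their ratios vary together over these samples.

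**Figure D5:**
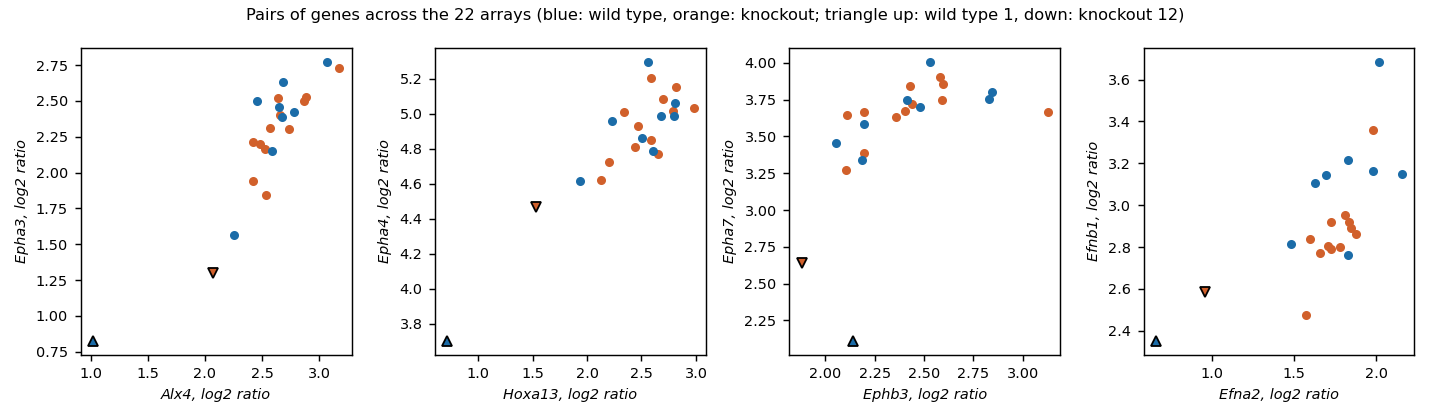
Log2 ratios of 4 pairs of genes, each point 1 of the 22 arrays (blue: wild type, orange: knockout). For Alx4 and Epha3 and for Hoxa13 and Epha4 the other 20 arrays also slope upward beside wild type 1 (triangle up) and knockout 12 (triangle down), with r of 0.80 and 0.63.

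By rank correlation over the 22 arrays, after subtracting genotype means, the 2 tested genes most like each of the 10 were looked up among 18622 genes and unnamed probes without missing values. Alx4 and Fermt2 were nearest to Epha3, both at a Spearman coefficient of 0.84, and Cdh8, a cadherin, to Epha4 at 0.88. Ambra1 (0.91) and Ccdc3 (0.87) were nearest to Epha7, and Igsf9 (0.94) and Tmem132a (0.92) to Ephb3. The weakest nearest genes were those of Ephb2, Tnks1bp1 (0.76) and Calr (0.75). For the ligands, Tor2a (0.89) and R74862 (0.88) were nearest to Efna1, Clgn (0.88) and Mlh3 (0.85) to Efna2, Flna (0.85) to Efna5, Grik5 (0.88) and Foxn3 (0.87) to Efnb1, and Rpgrip1l (0.92) to Efnb2. Without wild type 1 each of these values moved by at most 0.03. For Epha4, Efna5 and Efnb2 the other of the 2 nearest was a probe with no gene name. These are the highest of very many values and carry no test. No gene of the 10 was among the 2 nearest of another.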

How the data were processed

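Expression was measured on two-colour arrays in 22 forelimb samples. Titles and genotype labels gave the groups. Scanner images were read with Agilent Feature Extraction, version 9.5 per the submitters' processing notes and 9.5.3.1 per the file headers. The deposited mean signal and background intensities are raw scanner values, the deposited ratio is log10 of processed Cy5 over processed Cy3, and the flags are deposited as 0 or 1. The same log10 ratios make up the authors' deposited value table (largest difference 0, column medians 0). No column was without a sample.

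Intensities were corrected with normexp (offset 50) and normalised by loess within arrays, control and outlier spots at weight 0 and then left out. Spots of a probe were averaged. Probes entered the test with Cy5 signal well above background on 9 or more arrays, and a gene was represented by its brightest tested probe. No non-control spot was saturated. Probes were named by accession (23374), another accession (109), current symbol (6678), older symbol (2887) or the design's name (1826), through a GRCm38.p6 table, and 6300 had no name. Knockout minus wild type was estimated by limma 3.58.1 (R 4.3.3) over all 22 arrays with no covariate, adjusted by Benjamini-Hochberg over all tested genes, threshold 0.05. The fit was tested on simulated data.

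The 10 genes and the gene lists were chosen with earlier results of these data known. Named besides the 10 genes were up to 4 genes of each signalling list with the smallest p, and for each of the 10 genes the 2 most similar genes. The rest of the family, the limb position regulators, Tbx5, Pitx1 and Tbx4 are named beyond that rule, after their values were seen. Alternatives covered background, normalisation, channel, probe filter, probe choice, blocks, array weights and single arrays left out. Same-numbered samples of the 2 genotypes had correlations from -0.31 to 0.49. Differently numbered samples were not set beside them, so these values do not settle whether the numbers pair samples. The labels state no pairing.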

Additional observations from a re-analysis of the deposited data

Results flagged for a closer look

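Within wild type, 3 values stood far from the other 8 arrays by Dixon's test, all in wild type 1. Epha4 was at 3.70 there, with the next lowest array at 4.62, a gap of 0.579 of the whole range against a critical value of 0.493. Epha7 was at 2.11, with the next at 3.34 and a gap of 0.647. Efna2 was at 0.65, with the next at 1.48 and a gap of 0.55. Chance places about 1 in 20 groups past this limit, and the 10 genes of 1 array are not independent. The 13 knockout arrays were not tested in this way, so the absence of knockout values here says nothing about them. Knockout 12 was the lowest of them for Epha4 (4.46), Epha7 (2.64) and Efna2 (0.95).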

How the results depend on the processing

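None of 41 alternatives brought any of the 10 genes past the threshold, the smallest adjusted p being 0.11 (median centring), and differences changed sign in 62 of 410 recomputed values. Efnb1 and Efna1 were lower and Ephb2 higher in all 41 (-0.29 to -0.10, -0.11 to -0.025 and 0.074 to 0.23), with median centring read relative to its own median. Signs turned without background correction (Epha3 -0.025, Epha7 -0.034, Efna2 -0.065), at an offset of 16 (Efna2 -0.0006), with Cy5 alone (Epha3 -0.057, Efna2 -0.079), with the scanner's ratio (Epha3 -0.17, Epha7 -0.071, Efna2 -0.06) and with array weights (Epha3 -0.11, Epha7 -0.012, Efna2 -0.06, Efna5 -0.05). Median centring put the median difference over all genes at 0.24 and 18.5% of them lower. As made it gave all 10 genes a positive difference (0.14 for Efnb1 and 0.21 for Efna1 up to 0.47 for Ephb2), 4 with an unadjusted p under 0.05 (Epha4, Ephb2, Efna1, Efna5). Relative to its median, Epha3 was at -0.04, Ephb3 at 0.08, Efna2 at -0.053 and Efnb2 at 0.0046. With the slide as a block Ephb3 was at 0.006 and Efna2 at -0.00036; with position as a block, and within position 2, Epha4 was at -0.012, Epha7 at -0.25, Efna2 at -0.016 and Efna5 at -0.09. The replicate block (numbers 1 to 9) was used although the labels state no pairing. It gave 0 of the 10 genes and 1 gene in all, with Ephb3 at 0.0099 and Efna5 at -0.011. Without wild type 1 and knockout 1, Epha3 was at -0.18, Epha4 at -0.032, Epha7 at -0.097 and Efna2 at -0.14. Without wild type 1 and knockout 12, a choice made after seeing the data, Epha3 was at -0.057, Epha4 at -0.01, Epha7 at -0.007, Efna2 at -0.067 and Efna5 at -0.0059. Leaving out 1 array at a time gave ranges of -0.13 to 0.11 for Epha3, -0.046 to 0.15 for Epha4, -0.086 to 0.17 for Epha7, -0.084 to 0.032 for Ephb3, -0.13 to 0.063 for Efna2, -0.0089 to 0.09 for Efna5 and -0.16 to 0.0051 for Efnb2. Of all genes, 4 passed; leaving out 1 array gave 2 to 6. Median centring, the scanner's ratio, the slide, position and Y-linked terms and omission of wild type 1 with knockout 12 gave 1, omission of wild type 1 with knockout 1 gave 2, and position 2 alone, with 6 arrays, gave 0. By Pearson's r, 14 of 45 gene pairs passed, and the counts of pairs that follow are also by r. With median centring 37 passed, and 0 passed without wild type 1 and knockout 12. For the pairs only wild type 1 or knockout 1 was left out singly, and 0 to 16 passed. The causes were not tested. Signal limits Epha3 most: 1 of its probes was well above background on 17 of 22 arrays.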
